A study of Mus musculus with 4 samples.

Results

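Teneurins, latrophilins and FLRT proteins are cell surface proteins that hold axons and their targets together and steer them. The set described here has 10 genes of the 32285 in the deposited matrices: the teneurins Tenm1, Tenm2, Tenm3 and Tenm4, the latrophilins Adgrl1, Adgrl2 and Adgrl3, and Flrt1, Flrt2 and Flrt3. They were taken by name, with no measured value used. They were followed in single cells sorted by tdTomato (tdT) fluorescence from the mouse cerebellum at E14.5, in 2 control and 2 En1/2 conditional knockout (CKO) libraries. The controls carried Atoh1-Cre/+ and R26LSL-tdT/+. The CKO embryos carried these and, besides, En1lox/lox and En2lox/lox. Both groups therefore had the Atoh1-driven Cre and the Cre-dependent reporter at the R26 locus, and the Cre removes the floxed transcription factor genes only in cells that use or have used Atoh1. Dissected animals were pooled for a library, so the libraries and not the animals or cells are the replicates. Each p-value between genotypes within a gate sets the difference against the spread between libraries. Where classes of the same libraries are compared, the p-value sets it against how far the class difference varied from library to library.

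In the developing brain, teneurins on one cell bind latrophilins on another, and latrophilins bind FLRT proteins as well. FLRT proteins also bind the netrin receptors of the Unc5 family, through which they can repel migrating neurons and axons. Latrophilins are adhesion G protein-coupled receptors. In the cerebellum, Atoh1-lineage progenitors of the rhombic lip give rise to the excitatory neurons of the cerebellar nuclei, to granule cell precursors, which keep dividing in the external granule layer, and to unipolar brush cells.

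Cells were assigned by the unique molecular identifiers (UMIs) of a few genes, none of them a member of the set. Of 12546 kept cells, 3870 had more Meis2 than Pax6 UMIs and are called Meis2-high, and 6948 had more Pax6 than Meis2 UMIs and are called Pax6-high. A further gate took the 759 cells with an Olig2 UMI, and another the 1067 cells with a Tbr1 or Lmx1a UMI. These last gates overlap the first ones: of the Olig2 cells, 29, 266, 65 and 25 were Meis2-high and 66, 42, 62 and 111 Pax6-high in control 1, control 2, CKO 1 and CKO 2, the order used throughout. The labels of the gates were set beside markers. A list of 7 genes of excitatory nuclei neurons summed to between 2304 and 3050 CPM (UMIs of a gene per 1000000 UMIs of the cells summed) in Meis2-high cells and to between 114 and 489 CPM in Pax6-high cells. The list includes Meis2, so the gate itself fixed part of this difference. Slc17a6, a vesicular glutamate transporter of excitatory nuclei neurons and not a gate gene, stood at 225 to 343 CPM against 27.2 to 93.0 CPM. Meis2-high cells also held granule lineage RNA: a list of 7 such genes summed to between 1928 and 3120 CPM, against 3112 to 3495 CPM in Pax6-high cells. The granule lineage list includes Pax6, so the gate fixed part of this difference too. A list of 7 markers of GABAergic cells summed to 110.4, 68.3, 36.0 and 74.7 CPM in Meis2-high cells. In Pax6-high cells it summed to 41.1, 64.0, 9.96 and 20.4 CPM, lower in every library. Only 1 of the 7, Ptf1a, was at 0 in Meis2-high cells, in all 4 libraries, and the others were detected.

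The libraries held between 14998150 and 33709450 UMIs and between 2007 and 3931 kept cells, and pairs of libraries shared between 1 and 6 barcodes among kept cells. Cells were deeper in the CKO libraries, with medians of 5352 and 5544 UMIs per cell against 2734 and 2122 in the controls. In Pax6-high cells the medians were 3238 and 2339 against 13722.5 and 9818.5, and in Meis2-high cells 2617 and 2171.5 against 3110 and 2248. The labels name no batch, so genotype and preparation cannot be told apart. En2, the deleted gene that separated the groups, stood over all cells at 136 and 167 CPM for the controls, against 29.0 and 19.8 CPM for the CKO libraries. Its log2 fold change was −2.24 in Meis2-high cells (edgeR adjusted p = 0.018) and −2.51 in Pax6-high cells (adjusted p = 0.0115). En1 stood at 238, 382, 150.2 and 253 CPM over all cells, at 562, 462, 347 and 743 CPM in Meis2-high and at 171, 237, 93 and 212 CPM in Pax6-high cells. CKO 2 thus lay above both controls in Meis2-high cells for a gene that its label gives as deleted, and the position of its UMIs relative to the floxed part is not given in the sources used here.

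The teneurin genes are long. In GENCODE M21 on GRCm38 (mm10), Tenm1 spans 901 kb (chromosome X, 42527866 to 43429126), Tenm2 1229 kb (chromosome 11, 36006656 to 37235964), Tenm3 616 kb (chromosome 8, 48227682 to 48843951) and Tenm4 739.8 kb (chromosome 7, 96171246 to 96911093). Adgrl1 (chromosome 8, 83900105 to 83941954) covers 41.9 kb, Adgrl2 (chromosome 3, 148815583 to 148990555) 175 kb and Adgrl3 (chromosome 5, 81020138 to 81825133) 805 kb. The FLRT genes are compact: Flrt1 (chromosome 19, 7092001 to 7105729) takes 13.7 kb, Flrt2 (chromosome 12, 95692226 to 95785215) 93.0 kb and Flrt3 (chromosome 2, 140650914 to 140671469) 20.6 kb. Flrt1 lies inside Macrod1 and Flrt3 inside Macrod2, each on the opposite strand of its host, and the strand setting of the counting is not given in the sources used here. Macrod1 was too low to be tested in any comparison, and Macrod2 is given beside Flrt3 below.

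RefSeq promoter windows on GRCm38.p6, from 250 bases before the start that RefSeq lists for a gene to 50 after it, were found for 9 of the 10 genes, all but Flrt1. The windows of 4 genes are shown because the genes moved between the cell classes in both directions: Tenm1, Tenm2 and Flrt3 were higher in Meis2-high cells and Adgrl2 was lower. All 4 lie on the minus strand and are written 5′ to 3′. They are the windows chrX:43274735-43275034 for Tenm1, chr11:36944192-36944491 for Tenm2, chr2:140671427-140671726 for Flrt3 and chr3:148954586-148954885 for Adgrl2. The Flrt3 start lies at the outer 5′ end of the GENCODE gene. The starts of Tenm1, Tenm2 and Adgrl2 are internal ones, 154 kb, 292 kb and 35.9 kb downstream of that end, and lie 2, 75 and 0 bases from the nearest GENCODE transcript start of the same gene, so the outermost promoters of these 3 genes are not shown. Capitals mark matches on either strand to TAATTA, the core bound by many homeodomain proteins, to the E-boxes CAGCTG and CAGATG, the kind of site bound by Atoh1 and related factors, and to TGACAG, the core bound by Meis proteins.
Tenm1: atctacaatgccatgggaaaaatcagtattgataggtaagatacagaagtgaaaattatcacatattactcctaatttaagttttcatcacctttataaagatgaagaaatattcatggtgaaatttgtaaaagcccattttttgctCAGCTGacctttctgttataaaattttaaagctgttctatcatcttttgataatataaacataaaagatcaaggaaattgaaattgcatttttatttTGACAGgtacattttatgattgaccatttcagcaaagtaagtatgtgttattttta
Tenm2: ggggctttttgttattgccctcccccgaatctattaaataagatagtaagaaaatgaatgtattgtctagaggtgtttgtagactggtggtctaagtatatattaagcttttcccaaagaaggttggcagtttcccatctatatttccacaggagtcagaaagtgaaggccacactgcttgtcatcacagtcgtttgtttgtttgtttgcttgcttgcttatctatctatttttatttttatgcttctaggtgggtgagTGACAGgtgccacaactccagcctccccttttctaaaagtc
Flrt3: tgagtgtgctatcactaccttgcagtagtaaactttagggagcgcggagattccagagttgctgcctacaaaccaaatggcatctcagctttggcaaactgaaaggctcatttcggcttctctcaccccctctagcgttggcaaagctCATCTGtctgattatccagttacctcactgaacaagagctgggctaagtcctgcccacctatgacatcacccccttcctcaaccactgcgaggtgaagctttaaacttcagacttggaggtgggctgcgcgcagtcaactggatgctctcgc
Adgrl2: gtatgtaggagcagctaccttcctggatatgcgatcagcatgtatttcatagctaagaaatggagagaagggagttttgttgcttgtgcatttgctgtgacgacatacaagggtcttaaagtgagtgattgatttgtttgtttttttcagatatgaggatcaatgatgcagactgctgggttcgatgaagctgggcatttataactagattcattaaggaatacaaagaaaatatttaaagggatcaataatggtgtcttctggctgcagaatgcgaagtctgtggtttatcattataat
The Tenm1 window holds 1 CAGCTG and 1 TGACAG, the Tenm2 window 1 TGACAG and the Flrt3 window 1 CAGATG, read here as CATCTG on the other strand. The Adgrl2 window holds none of the 4 motifs. Of 32851 RefSeq windows of 300 bases, 5.29% hold TAATTA, 16.3% CAGCTG, 17.2% CAGATG and 19.2% TGACAG, so each match is a common one. Among the windows not shown, that of Tenm3 holds 1 TAATTA, and Adgrl3, which has 3 listed starts, has 1 CAGCTG and 1 CAGATG in different windows. The Tenm1 window is 27% G or C with 0 CpG sites, against a median of 52.7% over all windows (quartiles 45.7% and 61.7%).

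The first comparison set Meis2-high against Pax6-high cells within each library. It asks how the receptors and ligands differ between a gate richer in nuclei neuron markers and one richer in granule lineage markers. As given above, the Meis2-high gate also held granule lineage RNA, so the gates are not pure cell types. Of the 10 genes, 8 were higher in Meis2-high cells, Adgrl2 was lower and Flrt2 did not pass the test. The background of this comparison is high: edgeR called 51.8% of 13146 genes, 25.4% higher and 26.4% lower. The same 8 genes were higher in CPM in all 4 libraries, as were 32.7% of all genes tested, and Adgrl2 was lower in all 4, as were 28.1%. The median log2 difference over the 10 genes was 1.07, against −0.0046 over all genes tested, and it was 0.66 among intact cells, those of 4000 UMIs or more with no more than 5% mitochondrial UMIs. Intact cells were few in the Meis2-high gate, 55, 123, 168 and 85, against 479, 133, 732 and 1779 in the Pax6-high gate.

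**Figure D1:**
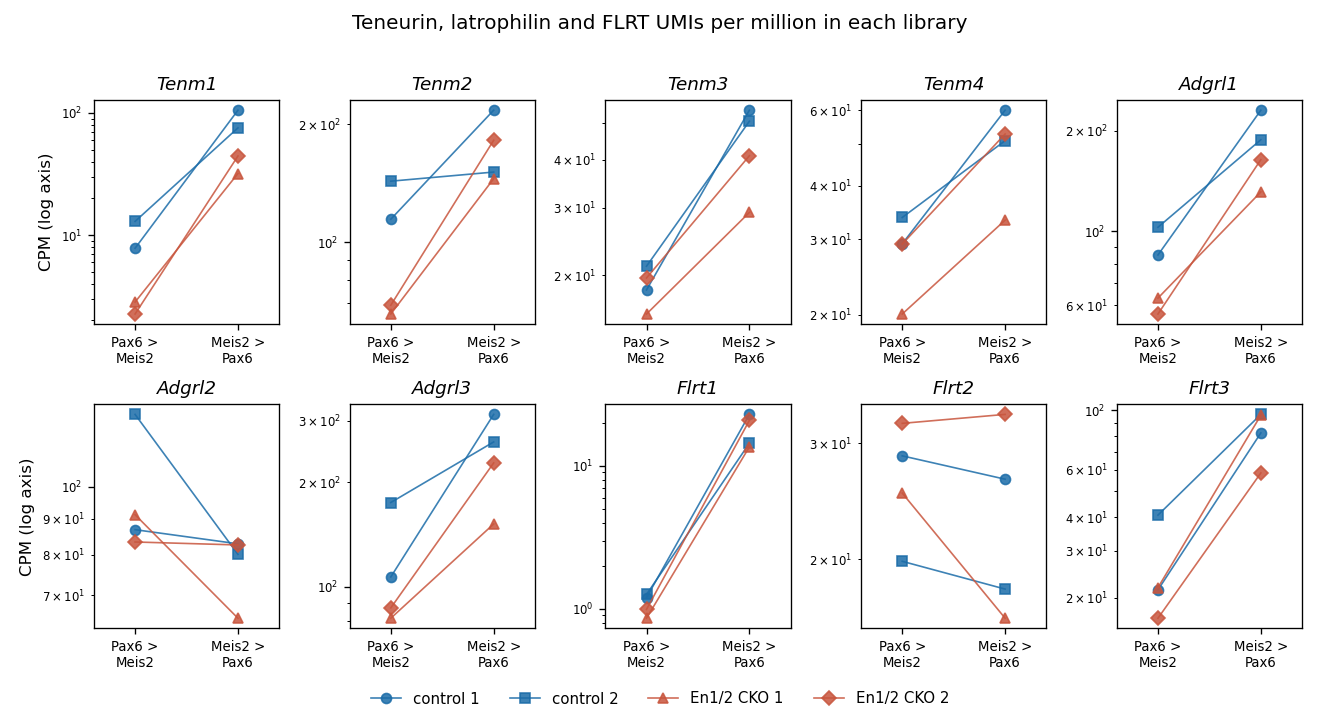
Level (CPM, log axis, scaled separately for each gene) of the 10 genes in Pax6-high and Meis2-high cells; each point is 1 library, lines join the classes of a library, blue is control and red is En1/2 CKO. All 4 lines rise steeply for Tenm1 and Flrt1, and those of Adgrl2 and Flrt2 are flat or fall, except that of Flrt2 in CKO 2.

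Of the teneurins, the ligands of latrophilins, Tenm1 differed most between the classes. It stood at 105, 75.4, 31.9 and 44.4 CPM in Meis2-high cells, from 207, 456, 141 and 79 UMIs. In Pax6-high cells it stood at 7.79, 12.9, 2.83 and 2.26 CPM, from 91, 41, 46 and 66 UMIs. The lowest Meis2-high value was above the highest Pax6-high value, and the ratio within a library ran from 5.84 in control 2 to 19.7 in CKO 2. The log2 difference was 3.49 (SE 0.19, edgeR adjusted p = 2.86e-08). Over the 4 gates the order was the same in every library: Meis2-high, then Tbr1 or Lmx1a cells at 45.4, 68, 17.1 and 27.7 CPM, then Olig2 cells at 14.7, 33.3, 3.37 and 4.61 CPM, then Pax6-high cells. Over libraries of both genotypes the Meis2-high mean was 64.3 ± 32.9 CPM and that of the Tbr1 or Lmx1a cells 39.6 ± 22.3 CPM (SD, n = 4 each), with overlapping ranges. The means were 14 ± 13.9 CPM in Olig2 cells and 6.45 ± 4.98 CPM in Pax6-high cells, whose ranges overlapped too. These neighbouring gates were not tested against each other, and they share libraries and in part cells. The order does not describe Meis2-high cells with a Tbr1 or Lmx1a UMI. Among Meis2-high cells Tenm1 averaged 97.9 ± 49.7 CPM in those cells and 61.2 ± 33.3 CPM in the rest (SD, n = 4 each). That difference was not called, and its direction was not the same in all 4 libraries.

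Tenm2 stood at 217, 151, 145 and 182 CPM in Meis2-high and 115, 143, 65.6 and 69.1 CPM in Pax6-high cells. The difference was small in control 2, with a ratio of 1.06, and largest in CKO 2, with 2.63; the log2 difference was 0.82 (SE 0.15, adjusted p = 0.000385). Tenm3, which guides topographic projections in the visual system and hippocampus, stood at 53.9, 50.5, 29.2 and 41 against 18.3, 21.1, 15.9 and 19.7 CPM. The classes did not overlap, and the log2 difference was 1.11 (SE 0.13, adjusted p = 9.34e-06). Tenm4, which is needed for the differentiation of oligodendrocytes, stood at 60.0, 51, 33.3 and 52.8 against 29.3, 33.7, 20.1 and 29.3 CPM, a log2 difference of 0.73 (SE 0.10, adjusted p = 4.24e-05). CKO 1 had the lowest Tenm4 value of both classes, and its Meis2-high value lay below the Pax6-high value of control 2. The Tenm4 difference was lost among intact cells, at 0.05 (adjusted p = 0.859).

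Of the latrophilins, the receptors, Adgrl1 and Adgrl3 were higher in Meis2-high cells and Adgrl2 was lower. Adgrl1 stood at 231, 188, 131 and 164 CPM against 84.9, 103, 63 and 56.4 CPM, with no overlap and a log2 difference of 1.16 (SE 0.10, adjusted p = 1.08e-06). Adgrl3, a gene linked to attention deficit disorder, stood at 313, 261, 152 and 227 CPM against 107, 175, 81.3 and 87.1 CPM. The Meis2-high value of CKO 1 lay below the Pax6-high value of control 2, but each library was higher in its own Meis2-high cells, and the log2 difference was 1.03 (SE 0.13, adjusted p = 1.78e-05). Adgrl2 stood at 82.9, 80.1, 65 and 82.6 CPM against 86.8, 127, 91.2 and 83.4 CPM. It was lower in the Meis2-high cells of all 4 libraries, by little in control 1 and CKO 2, and the log2 difference was −0.39 (SE 0.10, adjusted p = 0.00645). Adgrl2 was also lowest in Olig2 cells in every library, at 65.1, 79.7, 58.1 and 50.7 CPM.

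The FLRT genes, whose proteins bind both latrophilins and Unc5 receptors, did not share a direction. Flrt1 stood at 22.9, 14.4, 13.6 and 20.8 CPM in Meis2-high cells, from 45, 87, 60 and 37 UMIs, and at 1.2, 1.26, 0.861 and 0.991 CPM in Pax6-high cells, from 14, 4, 14 and 29 UMIs. Its ratio within a library ran from 11.4 to 21, and its log2 difference of 4.04 (SE 0.23, adjusted p = 3.48e-08) was the largest of the set. Flrt3 stood at 82.4, 96.6, 96 and 58.4 CPM against 21.4, 40.7, 21.8 and 16.8 CPM, with no overlap. The log2 difference of Flrt3 was 1.73 (SE 0.12, adjusted p = 1.11e-07), and that of its host gene Macrod2, whose reads could not be told from those of Flrt3 without strand, was 0.31 (SE 0.10, adjusted p = 0.0214). Flrt2 stood at 26.5, 18, 16.3 and 33.2 CPM against 28.7, 19.9, 25.2 and 32.1 CPM. The Flrt2 values of the classes overlapped, CKO 2 was slightly higher in its Meis2-high cells, and the log2 difference of −0.29 (SE 0.13, adjusted p = 0.0787) did not pass. It passed without control 2, at −0.35 (SE 0.14, adjusted p = 0.049).

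**Figure D2:**
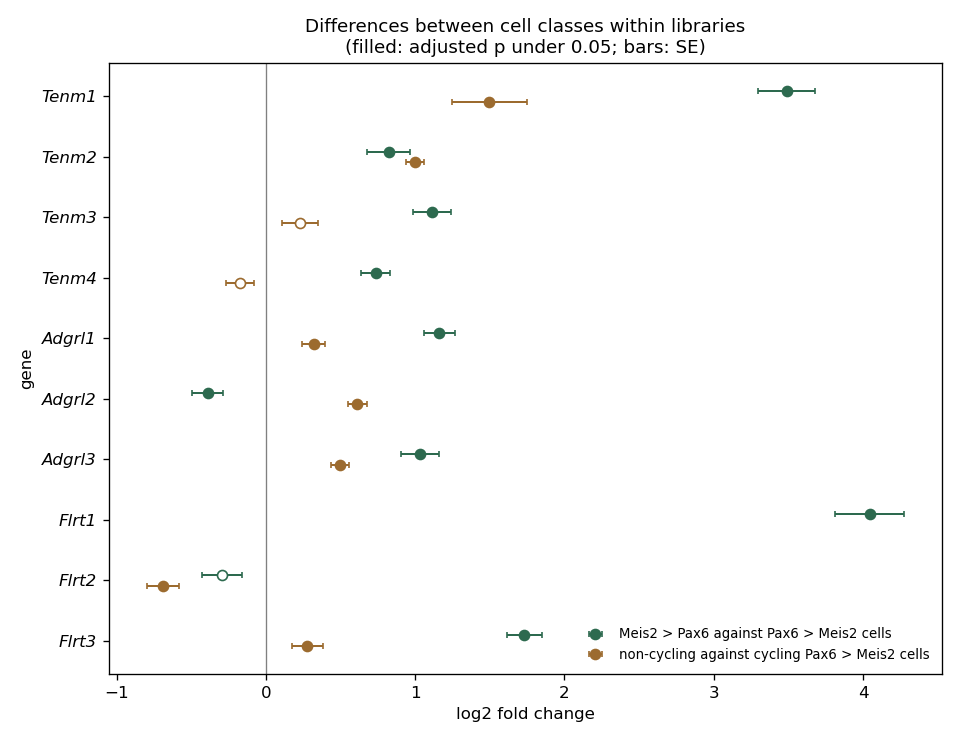
Log2 fold change of each gene (x axis) between Meis2-high and Pax6-high cells (green) and between non-cycling and cycling Pax6-high cells (brown), from edgeR fits with the library as block; bars are standard errors and filled points have an adjusted p under 0.05. Tenm1 and Flrt1 lie farthest to the right in green, Adgrl2 lies left of 0 in green and right of 0 in brown, and Flrt2 lies left of 0 in both; Flrt1 was too low for the brown comparison.

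Counting cells put the classes in the same order for Tenm1, Flrt1, Adgrl3 and Adgrl2. To set cells of unlike depth side by side, each was thinned to 2000 UMIs and shallower cells were left out. Tenm1 then had a UMI in 15.6%, 11.1%, 7.67% and 10.8% of Meis2-high cells and 1.87%, 2.78%, 0.767% and 0.708% of Pax6-high cells. Unthinned, the Tenm1 shares were 16.4%, 13%, 12.6% and 12.4% against 3.55%, 3.75%, 2.73% and 1.61%. For Flrt1 the thinned shares were 5.44%, 2.8%, 3.72% and 6.31% against 0.225%, 0.174%, 0.192% and 0.177%, and the 95% Wilson intervals of control 1 were 3.65% to 8.03% against 0.0765% to 0.659%, which cover counting error only. The unthinned Flrt1 shares were 6.14%, 3.49%, 7.33% and 8.06% against 0.666%, 0.416%, 0.911% and 0.672%. Thinned Adgrl3 was found in 42.3%, 39.3%, 32.1% and 44.6% against 23.4%, 34.4%, 18.5% and 18.1%, and thinned Adgrl2 in 13.7%, 14%, 14.2% and 15.8% against 18.5%, 22.4%, 19.5% and 16.7%. The unthinned shares were 52.7%, 41.2%, 55.8% and 55.4% against 39.6%, 38.9%, 53.8% and 47.3% for Adgrl3 and 19.2%, 15.7%, 30.4% and 23.1% against 35.1%, 30.0%, 56.5% and 46.4% for Adgrl2. Tenm2 did not keep the order in control 2. Its thinned shares were 34.5%, 24.7%, 27.9% and 35.1% against 23.9%, 25.9%, 15.6% and 13.0%. Thinned Flrt2 was found in 5.91%, 3.40%, 5.35% and 7.21% against 5.47%, 4.17%, 5.08% and 6.24%. After thinning, Flrt2 was thus more often found in Meis2-high cells except in control 2. The 95% Wilson intervals of the classes overlapped in every library, so these thinned shares do not order the classes. Unthinned, the Flrt2 shares were lower in Meis2-high cells of every library, at 6.47%, 4.05%, 9.25% and 11.02% against 13.8%, 6.14%, 21.9% and 20.9%. The negative log2 difference of Flrt2 came from unthinned sums. Cells with at least 20% haemoglobin UMIs, which should lack these genes, numbered only 3, 9, 3 and 0. None of them had a UMI of a member, except 1 of 9 in control 2 with an Adgrl2 UMI, and so few cells set no useful background.

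The Pax6-high cells were split into cycling cells, with at least 2 UMIs of 6 cell cycle genes together, and the rest. Of the 9 genes that could be tested, 7 differed: Tenm1, Tenm2, Adgrl1, Adgrl2, Adgrl3 and Flrt3 were higher in non-cycling cells and Flrt2 was lower. edgeR called 51.1% of all 12989 genes in this comparison, 25.5% higher and 25.6% lower. Without scaling factors the split moved from 3311 higher and 3331 lower to 3983 higher and 2632 lower. Cycling cells were deeper: the medians were 5042, 2819, 17463 and 12998 UMIs in cycling cells and 2734, 2109.5, 4415 and 4059 in the rest.

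Tenm2 gave the clearest step. It stood at 72.3, 92.7, 49.2 and 49.7 CPM in cycling and 169, 179, 106 and 96.4 CPM in non-cycling Pax6-high cells, higher in every library, with a log2 difference of 1.00 (SE 0.06, adjusted p = 8.55e-12). Adgrl2, which was lower in Meis2-high than in Pax6-high cells, was higher in non-cycling than in cycling Pax6-high cells. It stood at 66.2, 107, 75.7 and 67 CPM in cycling and 114, 141, 129 and 106 CPM in non-cycling cells, a log2 difference of 0.61 (SE 0.06, adjusted p = 2.87e-08). Flrt2 was the one member called higher in cycling cells, at 30.4, 23.6, 29.7 and 38.1 CPM against 26.5, 17.2, 14.3 and 23.7 CPM, a log2 difference of −0.69 (SE 0.11, adjusted p = 1.72e-05). The Flrt2 values were lower in non-cycling cells of all 4 libraries, as were those of 23.5% of all genes.

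Tenm1 stood at 4.1, 9.12, 1.04 and 1.52 CPM in cycling and 12.6, 15.6, 7.17 and 3.29 CPM in non-cycling Pax6-high cells, from at most 64 UMIs in a library, a log2 difference of 1.5 (SE 0.25, adjusted p = 4.03e-05). Adgrl3 differed by 0.50 (SE 0.06, adjusted p = 4.63e-07), Adgrl1 by 0.32 (SE 0.08, adjusted p = 0.00156) and Flrt3 by 0.28 (SE 0.11, adjusted p = 0.0346). These 3 genes, Tenm1, Tenm2 and Adgrl2 were higher in non-cycling cells of all 4 libraries, as were 34.1% of all genes tested. Tenm3 (0.23, SE 0.12, adjusted p = 0.122) and Tenm4 (−0.17, SE 0.10, adjusted p = 0.135) did not pass. Among intact cells only Tenm2, Adgrl2 and Flrt2 passed, with Tenm1 at −0.06 and Adgrl1 at −0.15. Flrt3 was also lost without control 1 (adjusted p = 0.0877) and without CKO 1 (adjusted p = 0.41), and Adgrl1 without control 1 (adjusted p = 0.052), where Tenm4 passed; Tenm3 passed without CKO 1 (adjusted p = 0.0395).

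Within the Meis2-high cells, those with an Olig2 UMI were set against the others. Olig2 is a transcription factor of progenitors and of some young neurons. edgeR called Tenm1 and Adgrl3 lower in the Olig2 cells, 2 of 10 genes, against 1.05% of all 10378 genes either way and 0.626% lower. Tenm1 stood at 37.4, 43.4, 3.29 and 19.3 CPM in Olig2 cells, from only 5, 38, 3 and 6 UMIs, and at 110.2, 80.9, 39.3 and 49.7 CPM in the others. It was lower in every library, with a log2 difference of −1.42 (SE 0.25, adjusted p = 0.0017). Adgrl3 stood at 187, 225, 95.4 and 135 CPM against 322, 267, 166 and 247 CPM, also lower in every library, with a log2 difference of −0.58 (SE 0.14, adjusted p = 0.0278). In all, 7 of the 10 genes were lower in all 4 libraries, against 13.3% of all genes tested: Tenm1, Tenm2, Tenm3, Tenm4, Adgrl3, Flrt1 and Flrt3. Flrt1 had 0, 2, 9 and 3 UMIs in the Olig2 cells and 24.56, 16.44, 14.54 and 23.16 CPM in the others, and did not pass (adjusted p = 0.13). Olig2 cells were deeper, with medians of 3183, 2650, 9391 and 10512 UMIs against 2578.5, 2115.5, 2924.5 and 2184, and among intact cells neither gene passed (Tenm1 −0.18, Adgrl3 −0.29). Adgrl3 was also lost without control 1 (adjusted p = 0.145) and without CKO 1 (adjusted p = 0.438).

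Cells with a Tbr1 or Lmx1a UMI differed from the other Meis2-high cells in a pair of teneurins that moved apart. Tbr1 marks young medial nuclei neurons and Lmx1a unipolar brush cells and some nuclei neurons. edgeR called 2 of 10 genes, against 2.79% of all 10783 genes. Tenm2 was higher in the Tbr1 or Lmx1a cells, at 319, 214, 177 and 321 CPM against 206, 139.8, 137 and 172 CPM, in every library, with a log2 difference of 0.58 (SE 0.10, adjusted p = 0.000351); 1.79% of all genes were called higher, and 8.24% were higher in all 4 libraries. Tenm4 was lower, at 20.9, 34.7, 10.1 and 16.1 CPM from 4, 32, 9 and 2 UMIs, against 64.2, 53.9, 39.1 and 55.6 CPM, in every library, with a log2 difference of −1.16 (SE 0.23, adjusted p = 0.00107); 1% were called lower, and 11.4% were lower in all 4 libraries. Adgrl3 was also higher in all 4 libraries, and Flrt1 and Flrt3 were lower in all 4, but none of these 3 passed the test. Neither passed among intact cells (Tenm2 0.08, Tenm4 −1.37). Tenm2 missed the threshold without control 2 (adjusted p = 0.0602), and Tenm4 without CKO 1 (adjusted p = 0.12).

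The second comparison set the CKO libraries against the controls within each gate, the study's own question of what the loss of En1 and En2 does. In Meis2-high cells edgeR called 0 of the 10 genes at an adjusted p under 0.05, and 0.212% of 11804 genes in all. At an unadjusted p under 0.05 there were 3 (Tenm1, Tenm3 and Adgrl3), against 14.7% of all genes, and DESeq2 called 1, Tenm1, among 186 of 19508 genes. The median log2 fold change of the 10 genes was −0.26, against −0.01 over all genes tested. That median depended on the cells and libraries summed: it was −0.02 with each cell thinned to 2000 UMIs, −0.07 without the Rflna or Hopx cells described below, −0.49 among intact cells, −0.39 without control 2 and −0.45 without CKO 2. In 4 of the 10, Tenm1, Tenm3, Adgrl1 and Adgrl3, both CKO libraries lay below both controls, as they did in 24.6% of all genes tested; in none did both lie above, as in 19.8%.

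**Figure D3:**
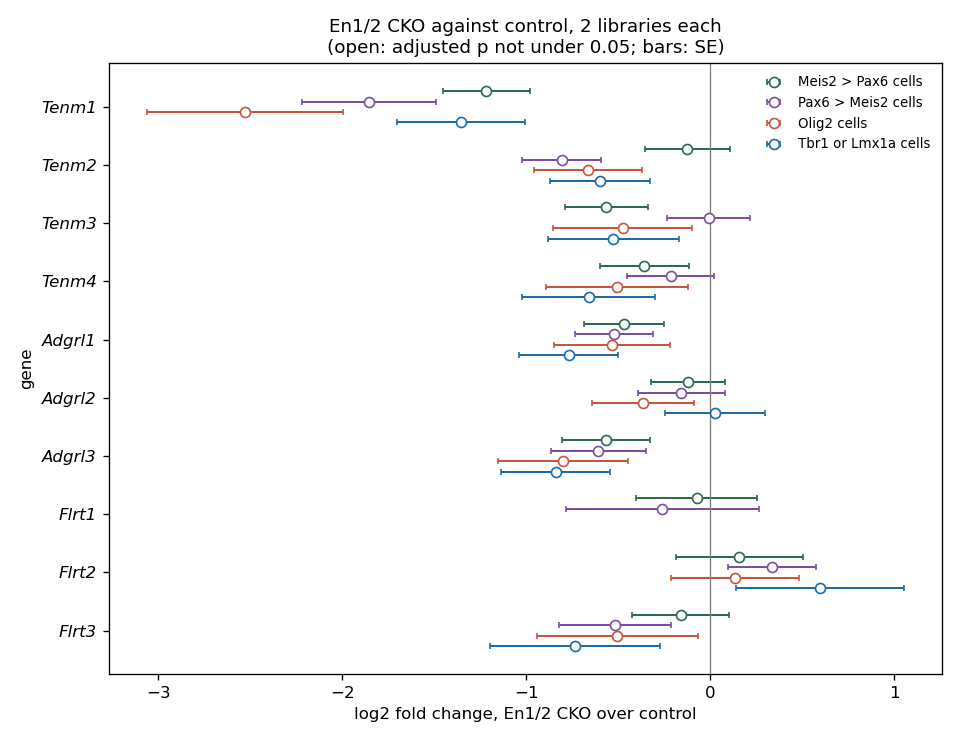
Log2 fold change of each gene, En1/2 CKO over control (x axis), in Meis2-high (green), Pax6-high (purple), Olig2 (red) and Tbr1 or Lmx1a cells (blue), from edgeR fits on 2 against 2 libraries; bars are standard errors, and all points are open since none had an adjusted p under 0.05. Tenm1 lies farthest to the left in all 4 gates, between −1.22 and −2.53, and Flrt2 lies right of 0 in all 4; Flrt1 was tested in the first 2 gates.

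Tenm1 had the lowest log2 fold change of the set in every gate. In Meis2-high cells the controls stood at 105 and 75.4 CPM and the CKO libraries at 31.9 and 44.4 CPM, or 90.4 ± 21.1 CPM against 38.2 ± 8.83 CPM (SD, n = 2 each). The groups did not overlap, and the log2 fold change was −1.22 (SE 0.23, adjusted p = 0.0864) by edgeR, past the threshold by DESeq2 at −1.2 (SE 0.32, adjusted p = 0.0109). In Pax6-high cells the values were 7.79 and 12.9 CPM against 2.83 and 2.26 CPM, or 10.4 ± 3.63 CPM against 2.54 ± 0.404 CPM (SD, n = 2 each), and the log2 ratio was −1.85 (SE 0.36, adjusted p = 0.145) by edgeR and −1.84 (SE 0.47, adjusted p = 0.02) by DESeq2. In the Olig2 cells Tenm1 stood at 14.7, 33.3, 3.37 and 4.61 CPM, from 16, 41, 8 and 11 UMIs, and in the Tbr1 or Lmx1a cells at 45.4, 68, 17.1 and 27.7 CPM, from 42, 105, 54 and 37 UMIs. Both CKO libraries lay below both controls there too, with log2 fold changes of −2.53 (SE 0.53, adjusted p = 0.434) and −1.35 (SE 0.35, adjusted p = 0.428). The gates share libraries and in part cells, so these are not separate tests of 1 difference. Tenm1 is on the X chromosome, and the libraries differed in Xist, the RNA of the inactive X, at 0.606, 2254, 1392 and 438 CPM over all cells. The library with nearly no Xist, control 1, had the highest Tenm1 level in Meis2-high cells but not in Pax6-high cells, and the part of sex in the Tenm1 values was not tested.

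The Tenm1 value in Meis2-high cells moved with which cells were summed. The granule lineage list of 7 genes, all detected, stood higher in the CKO libraries of this gate, at 2858 and 3120 CPM against 2082 and 1928 CPM, and its part in the Tenm1 difference was not tested. Cells with a Rflna or Hopx UMI made up 6.14% and 2.45% of the Meis2-high cells of the controls and 30.4% and 18.8% of those of the CKO libraries. They were deep, with medians of 4169, 2741, 13322 and 9863 UMIs, so they gave 13.0% and 3.62% of the UMIs summed for the controls, against 57.1% and 40.4% for the CKO libraries. Tenm1 was low in them, at 11.8, 22.9, 6.73 and 4.17 CPM. Without these cells, an exclusion chosen after the data had been seen, the log2 fold change was −0.53 (SE 0.23, adjusted p = 0.599). With each cell thinned to 2000 UMIs, which gives every cell the same weight, it was −0.40 (SE 0.28, adjusted p = 0.997). Among intact cells it was −2.52 (SE 0.38, adjusted p = 0.0111). Leaving out control 2 gave −1.39 (SE 0.33) and leaving out CKO 2 −1.39 (SE 0.25). The values without control 1 and without CKO 1 also lay between −2.52 and −0.40. Each of these fits leaves 1 library in a group.

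**Figure D4:**
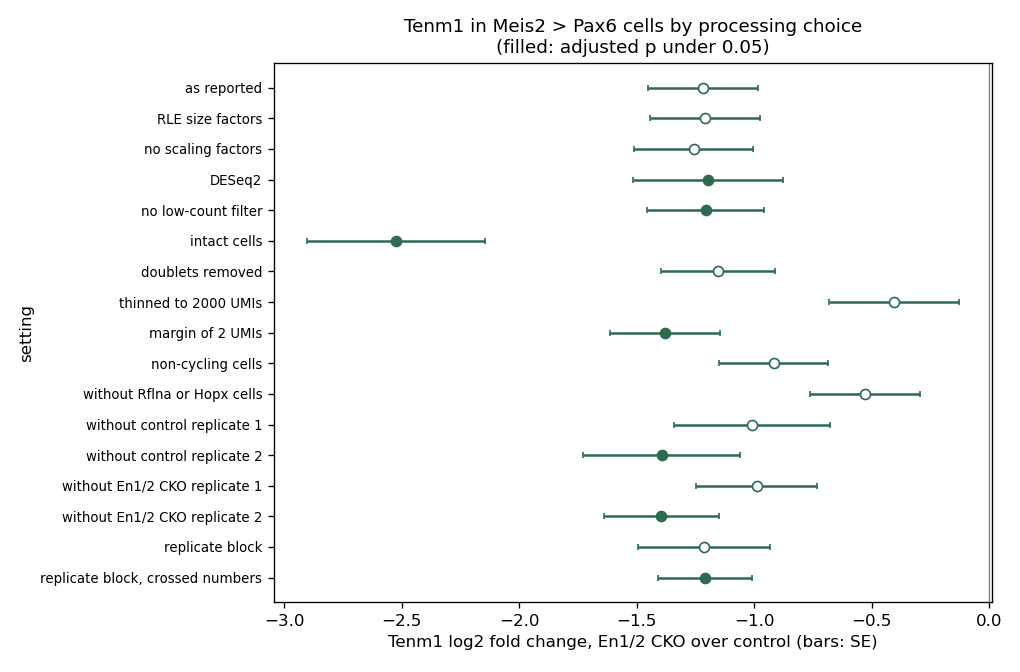
Log2 fold change of Tenm1 in Meis2-high cells, En1/2 CKO over control (x axis), under each processing choice (y axis), with standard errors; filled points have an adjusted p under 0.05. All values lie left of 0, from −2.52 among intact cells to −0.40 with cells thinned to 2000 UMIs.

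Subsets of the Meis2-high cells were also taken by genes that had led groups of these cells in earlier work on the same libraries. In cells with a Gria1 or Col25a1 UMI, Tenm1 stood at 190.2, 93.8, 41.8 and 55.9 CPM. In cells with a Foxp2 UMI it stood at 183, 129, 69 and 87.9 CPM, and in cells with a Bnc2 UMI at 92.9, 52.1, 12.3 and 44.9 CPM. These values rest on 77, 60, 34 and 10 UMIs in the Gria1 or Col25a1 cells, 46, 67, 45 and 20 in the Foxp2 cells, 17, 24, 9 and 5 in the Bnc2 cells and 3, 5, 17 and 3 in the Rflna or Hopx cells. In each subset both CKO libraries lay below both controls, as they did for 25.6%, 19.3%, 20.7% and 18% of all genes in the same order. The Tenm1 difference was not tested within the subsets, which hold between 21 and 211 cells of a library.

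**Figure D5:**
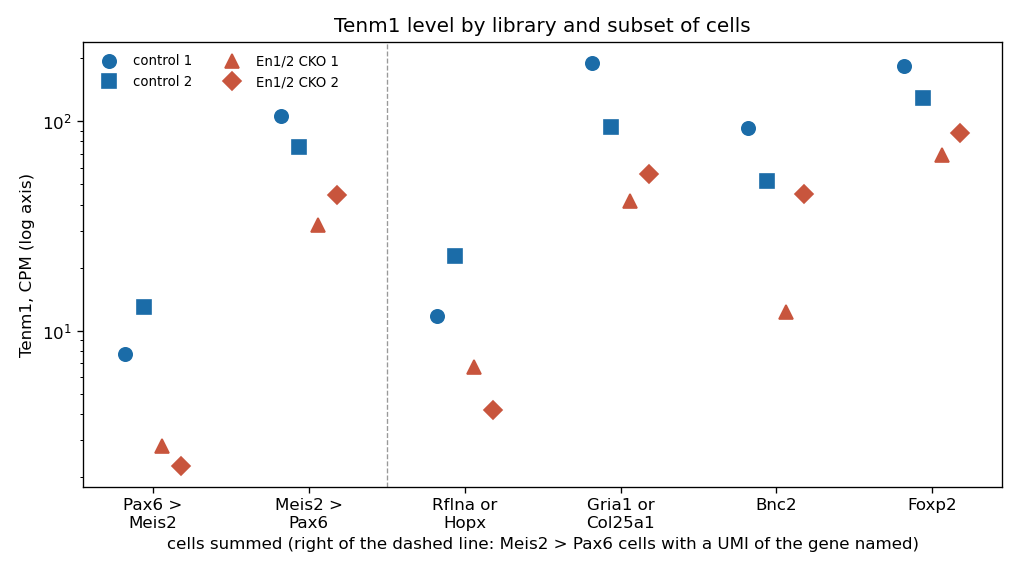
Tenm1 level (CPM, log axis) in each library for Pax6-high and Meis2-high cells and, right of the dashed line, for Meis2-high cells with a UMI of the gene named; blue marks are controls and red marks En1/2 CKO libraries. In every column both red marks lie below both blue marks, and the Rflna or Hopx cells lie near the Pax6-high cells.

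The other members varied between the subsets too. Adgrl3 stood at 617, 384, 126 and 369 CPM in the Bnc2 cells and at 114, 174, 95.9 and 97.4 CPM in the Rflna or Hopx cells. Tenm4 stood at 175, 106, 32.8 and 126 CPM and 11.8, 27.4, 17.8 and 25 CPM in the same subsets, and Adgrl1 at 301, 232, 117 and 261 and 86.3, 91.4, 91.5 and 102 CPM. Flrt3 stood at 164, 174, 123 and 71.9 CPM against 51, 77.7, 103 and 36.2 CPM. These 4 were not alone: all 10 members were higher in the Bnc2 cells than in the Rflna or Hopx cells of all 4 libraries, as were 13.5% of the 11804 genes. The subsets shared 1, 4, 18 and 2 cells, and the difference was not tested.

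Among the other members in Meis2-high cells, Adgrl3 stood at 313 and 261 CPM in the controls and 152 and 227 CPM in the CKO libraries, and the log2 ratio was −0.57 (SE 0.24, adjusted p = 0.314). Adgrl1 (231 and 188 against 131 and 164 CPM) gave −0.47 (SE 0.22, adjusted p = 0.348) and Tenm3 (53.9 and 50.5 against 29.2 and 41 CPM) −0.57 (SE 0.23, adjusted p = 0.29). In these 3 genes the groups did not overlap, but CKO 1 was the lowest library each time and CKO 2 lay between it and the lower control. For Tenm2 (−0.13), Tenm4 (−0.36), Adgrl2 (−0.12), Flrt1 (−0.07), Flrt2 (0.16) and Flrt3 (−0.16) the libraries of the groups overlapped, and the adjusted p-values lay between 0.545 and 0.941. The SEs of these 10 fits in Meis2-high cells ran from 0.20 for Adgrl2 to 0.34 for Flrt2.

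In Pax6-high cells edgeR called 0 of 10 genes, against 0.0574% of 13931 genes; 4 had an unadjusted p under 0.05 (Tenm1, Tenm2, Adgrl1 and Adgrl3), against 9.82% of all genes, and of the members DESeq2 called Tenm1 alone. Tenm2 stood at 115 and 143 CPM in the controls and 65.6 and 69.1 CPM in the CKO libraries, 129 ± 20.3 CPM against 67.4 ± 2.45 CPM (SD, n = 2 each). The log2 fold change of Tenm2 was −0.81 (SE 0.21, adjusted p = 0.282). Adgrl3 gave −0.61 (SE 0.26, adjusted p = 0.495) and Adgrl1 −0.52 (SE 0.21, adjusted p = 0.486). Both CKO libraries lay below both controls for 6 of the 10 genes, Tenm1, Tenm2, Tenm4, Adgrl1, Adgrl3 and Flrt1, against 34.9% of all genes tested. The 7 GABAergic markers were lower in the CKO libraries of this gate as well, summing to 9.96 and 20.4 CPM against 41.1 and 64.0 CPM, with 1 of the 7 at 0 in each control and 0 in each CKO library. The median mitochondrial share of the cells was 2.99% and 2.45% against 5.38% and 5.31%. The part of either in the members' values was not tested. More of the CKO cells of this gate also passed as cycling, 648 of 1208 and 1266 of 2978 cells against 646 of 1801 and 309 of 961. Cycling was set by UMIs with no correction for depth, so shallow cycling cells can fall among the non-cycling ones. The CKO cells were deeper, with medians of 13722.5 and 9818.5 UMIs against 3238 and 2339, and the part of depth in these shares was not tested. Within non-cycling Pax6-high cells Tenm2 stood at 169 and 179 CPM in the controls and 106 and 96.4 CPM in the CKO libraries, without overlap. The log2 fold change there was −0.65 (SE 0.19, adjusted p = 0.261), and with cells thinned to 2000 UMIs it was −0.74 (SE 0.20, adjusted p = 0.145). For Tenm1 the same fits gave −1.36 (SE 0.41, adjusted p = 0.262) and −1.33 (SE 0.39, adjusted p = 0.177).

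In the Olig2 cells edgeR called 0 of the 9 genes that could be tested, against 0.019% of 10524; 3 had an unadjusted p under 0.05, against 7.63% of all genes, and DESeq2 called 0. Both CKO libraries lay below both controls for Tenm1, Tenm2, Adgrl1, Adgrl2 and Adgrl3, 5 of 9, against 23.3% of all genes tested. Adgrl3 stood at 110.1, 211, 85.5 and 92.5 CPM and gave −0.80 (SE 0.35, adjusted p = 0.651). Without control 1 Tenm1 (−2.98, SE 0.52, adjusted p = 1.36e-05) and Adgrl3 (−1.18, SE 0.33, adjusted p = 0.00925) passed, in a fit that called 1308 genes. GABAergic markers summed to 64.2 and 33.3 CPM in the controls and 7.58 and 12.1 CPM in the CKO libraries here, and their part was not tested. Control 2 stands apart in this gate, since 266 of its 366 Olig2 cells were Meis2-high, and its haemoglobin genes summed to 9221 CPM against 0.837 to 8.26 CPM in the other libraries. Its 3 microglia markers summed to 93.5 CPM, against 0 to 0.421 CPM in the others. The Olig2 cells were deeper in the CKO libraries, with medians of 13268 and 14646 UMIs against 4233.5 and 2605.5, and the part of depth was not tested.

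In the Tbr1 or Lmx1a cells 0 of 9 genes were called, against 0.00981% of 10196; 3 had an unadjusted p under 0.05, against 8.94% of all genes, and DESeq2 called 0. Tenm1, Tenm2, Tenm4, Adgrl1 and Adgrl3 lay lower in both CKO libraries, 5 of 9, against 24.3% of all genes tested. Adgrl3 stood at 189, 269.5, 113 and 136 CPM, and the log2 ratio was −0.84 (SE 0.30, adjusted p = 0.507). Adgrl1 stood at 121, 156, 83.1 and 74.2 CPM, with −0.77 (SE 0.27, adjusted p = 0.507). Tenm1 passed without control 1 (−1.64, SE 0.34, adjusted p = 0.0194) and without CKO 2 (−1.66, SE 0.46, adjusted p = 0.0411). Meis2-high cells made up a larger share of this gate in control 2, 306 of 511 cells, than in control 1 (49 of 144), CKO 1 (95 of 264) or CKO 2 (28 of 148). Here too the CKO cells were deeper, with medians of 5639.5 and 5264 UMIs against 3085 and 2547.

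Whether the CKO effect differed between Meis2-high and Pax6-high cells was tested as an interaction, which edgeR called for 0 of the 10 genes and 0.114% of 13146 genes; 2 genes, Tenm2 and Tenm3, had an unadjusted p under 0.05, against 5.64% of all genes, and DESeq2 called 0. Tenm2 had the largest difference, 0.68 (SE 0.22, adjusted p = 0.527): the CKO values lay below the controls in Pax6-high cells and overlapped them in Meis2-high cells. The Tenm1 difference was 0.57 (SE 0.36). Tenm2 passed with cells thinned to 2000 UMIs (0.98, SE 0.22, adjusted p = 0.00267) and without control 1 (1.03, SE 0.17, adjusted p = 6.08e-07), as did Tenm1 without control 1 (1.2, SE 0.34, adjusted p = 0.0183), where 422 genes were called.

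The partners of these proteins were followed as a list of 21 genes. It holds the Unc5 receptors, other binding partners (among them Robo1, Fgfr1, Nrxn2, Nrxn3, Dag1, Gpc3 and Cntn6), scaffolds and G proteins downstream (among them Shank1 to Shank3, Gna12, Gna13, Rnd1 and Rnd3) and the Unc5 ligand Ntn1. Between Meis2-high and Pax6-high cells 12 of the 21 were called, 9 higher and 3 lower in Meis2-high cells, against the 51.8% of all genes called either way in this comparison. The Unc5 receptors split. Unc5c stood at 207, 181, 169.5 and 233 CPM in Meis2-high and 515, 579.6, 374 and 434 CPM in Pax6-high cells, lower in every library (−1.33, SE 0.11, adjusted p = 4.18e-07). Unc5a was lower as well, at 23.4, 16.7, 23.5 and 29.8 against 46.7, 43.8, 44 and 54.1 CPM (−1.10, SE 0.11, adjusted p = 2.25e-06). Unc5d, a receptor that FLRT proteins bind, was higher, at 31.5, 19.4, 9.5 and 18.5 against 2.4, 5.36, 0.922 and 1.09 CPM (3.26, SE 0.29, adjusted p = 1.08e-06). Unc5b did not pass (0.03, SE 0.25, adjusted p = 0.935).

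The other partners called higher in Meis2-high cells included Nrxn2 (1.51) and Nrxn3 (1.23), synaptic proteins that bind latrophilins, the axon guidance receptor Robo1 (1.17), the scaffolds Shank1 (1.57) and Shank3 (0.52), and the small GTPase Rnd3 (0.57). Gpc3, a glypican that binds Unc5 receptors, was lower (−2.03). Shank3 missed the threshold without control 1 (adjusted p = 0.0855) and without CKO 2 (adjusted p = 0.211). Between non-cycling and cycling Pax6-high cells 14 of 21 were called, against 51.1% of all genes. The 9 that were higher in non-cycling cells included Unc5c (0.38), Unc5d (1.04), Nrxn2 (1.07), Nrxn3 (1.19), Shank1 (1.16), Shank2 (1.13) and Shank3 (0.76). The 5 that were lower were Gpc3 (−1.79), Rnd1 (−1.46), Fgfr1 (−0.88), Rnd3 (−0.63) and Unc5a (−0.42). Unc5d missed the threshold there without control 1 (adjusted p = 0.218), and Rnd1 was too low to be tested without CKO 1. Unc5c was thus lower in Meis2-high than in Pax6-high cells and higher in non-cycling than in cycling Pax6-high cells, as Adgrl2 was.

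In the Tbr1 or Lmx1a cells among the Meis2-high cells, Unc5c was higher, at 408, 366, 303 and 418 CPM against 185, 147, 136 and 219 CPM (1.17, SE 0.10, adjusted p = 1.04e-11), as was Nrxn3 (1.15, SE 0.14, adjusted p = 2.94e-07), and Robo1 was lower (−0.46, SE 0.13, adjusted p = 0.0332). In the Olig2 cells among them Shank1 was lower (−0.78, SE 0.18, adjusted p = 0.0261). The Robo1 and Shank1 calls were each lost whichever library was left out, at adjusted p-values from 0.0776 to 0.329 for Robo1 and from 0.0621 to 0.143 for Shank1. Between CKO and control edgeR called 0 of the 20 partners tested in Meis2-high cells and 0 of 21 in Pax6-high cells, with 9 and 6 at an unadjusted p under 0.05 (against 14.7% and 9.82% of all genes), while DESeq2 called 1, Nrxn2 (−0.78, SE 0.24, adjusted p = 0.0465), and 1, Nrxn3 (−1.49, SE 0.35, adjusted p = 0.00652). Without CKO 2 edgeR called Nrxn2 (−1.0) and Nrxn3 (−1.42) in Meis2-high cells and Nrxn3 (−2.17) in Pax6-high cells. Unc5b had the highest log2 fold change of the list in Meis2-high cells. It stood at 4.07, 5.79, 12 and 17.4 CPM, with both CKO libraries above both controls and a log2 ratio of 1.48 (SE 0.38, adjusted p = 0.148). Unc5d stood at 31.5, 19.4, 9.5 and 18.5 CPM (−0.86, SE 0.36, adjusted p = 0.313), and the controls lay above both CKO libraries.

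Genes with the most similar pattern were looked for over the 16 sums of 4 gates in 4 libraries, among 7153 genes with at least 20 CPM on average. The sums share libraries, depth and in part cells, so the correlations are a description. Tenm1 was closest to Snhg11 (Pearson r 0.97) and C130073E24Rik (0.96), Tenm2 to Gm19938 (0.96) and Rims1 (0.95), Tenm3 to Tnrc18 (0.96) and Gprasp1 (0.95), and Tenm4 to Huwe1 and Pikfyve (0.93 each). Adgrl1 was closest to Lrrc4b and Abca2 (0.98 each), Adgrl3 to Tmem132a (0.99) and Lrig2 (0.98), and Flrt3 to Tcaf1 (0.98) and Alg2 (0.96). The closest genes were less similar for Adgrl2 (Plxnb2, 0.90, and Efnb2, 0.89) and Flrt2 (Alcam, 0.90, and Nol8, 0.89). Flrt1 was closest to Crebrf (0.95) and Acadsb (0.92).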

How the data were processed

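Cells sorted for tdT were profiled by 10x Genomics single-cell RNA sequencing in 2 control and 2 CKO libraries. The authors deposited raw UMI counts per gene and barcode, made with Cell Ranger 5.0.0 on mm10, per the submitters' processing notes; the annotation is not given in the sources used here. The members, gene lists and subsets were chosen with earlier results of these data known.

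Barcodes with fewer than 500 genes, fewer than 1000 UMIs or more than 10% mitochondrial UMIs were left out; doublets were kept in the main analysis, and an alternative removed those that Scrublet (scanpy 1.11.5) scored highest (0.8% per 1000 cells, 68, 124, 32 and 109 cells). Counts were summed per library and gate. CPM divides a gene's sum by all UMIs of the same cells. The sums held between 924954 and 29253054 UMIs for the 4 gates, which sets the precision of each value.

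The test was the quasi-likelihood test of edgeR 4.0.16 (R 4.3.3) on these sums, two-sided, after filterByExpr and TMM scaling, with Benjamini-Hochberg adjustment over all genes tested. A gene with an adjusted p under 0.05 is called. Each SE was obtained by dividing the log2 fold change by the root of the F statistic. Comparisons between cells of the same libraries had the library as block. The fits were tested on simulated data. DESeq2 1.42.0, other scaling, no filter on low counts, intact, thinned, non-cycling or more strictly gated cells, and leaving out each library were alternatives. Replicate numbers are shared by both groups, but no label ties them to a litter or day. Named genes were the 10 members, partners called in any fit with the Unc5 receptors in any case, En1 and En2, and up to 2 genes most like each member by Pearson r of log2(CPM + 1); Macrod1, Macrod2, Xist and the genes of the gates were named beside them. The partner list is counted in full, but 2 of its genes are not reported here by name. Coordinates are from GENCODE M21.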

Additional observations from a re-analysis of the deposited data

How the results depend on the processing

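Each group had 2 libraries of unlike depth, with no batch label. The lowest members are the least certain: Flrt1 had 61 UMIs in all Pax6-high cells. Tenm1 rested on 3 to 38 UMIs per library in Meis2-high cells with Olig2. Of 1091 member values under alternatives, 77 changed sign against the value reported, 2 of them called values: among intact cells the difference between non-cycling and cycling Pax6-high cells was −0.0629 for Tenm1 (adjusted p = 0.922) and −0.149 for Adgrl1 (adjusted p = 0.119). The cause was not tested. Without scaling factors the median of all genes moved to −0.13 in Pax6-high cells, CKO over control, and to 0.10 for the difference of the CKO effect; no called member changed direction, and those that did were Adgrl2 in Tbr1 or Lmx1a cells (−0.02) and Adgrl3 in the difference of the CKO effect (0.07), neither called.

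For CKO against control in Meis2-high cells, where 0 members were called, 1 (Tenm1) was called by DESeq2, among intact cells, with a margin of 2 UMIs between Meis2 and Pax6, and with no filter on low counts, and 0 to 1 when a library was left out. In Pax6-high cells 1 (Tenm1) was called by DESeq2 and with no filter. In Olig2 cells 0 to 2 were called when a library was left out. In Tbr1 or Lmx1a cells 1 was called with no filter and 0 to 1 when a library was left out. For the difference of the CKO effect 1 (Tenm2) was called with thinned cells, and 0 to 2 when a library was left out. Of the 7 members called between non-cycling and cycling cells, 3 were called among intact cells. Of the 2 called between Olig2 and other Meis2-high cells, 1 was called by DESeq2, 0 among intact cells, 4 with no filter, 1 with thinned cells and 1 to 2 when a library was left out. Of the 2 called between Tbr1 or Lmx1a and other Meis2-high cells, 0 were called among intact cells, 1 with thinned cells and 1 to 2 when a library was left out. For Meis2-high against Pax6-high cells between 8 and 10 members were called throughout, against 9 reported.

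Over all genes, calls in Meis2-high cells ran from 2 without Rflna or Hopx cells, through 25 as reported, to 922; in Pax6-high cells from 0, through 8, to 348 with no filter; in Olig2 cells from 0, through 2, to 1308 without control 1; in Tbr1 or Lmx1a cells from 0, through 1, to 512 without control 1. The other ranges were 4455 (thinned) to 7051 (no filter) around 6806 for Meis2-high against Pax6-high cells, 3699 (thinned) to 6732 around 6642 for non-cycling against cycling cells, 10 to 422 (without control 1) around 15 for the difference of the CKO effect, 43 (DESeq2) to 207 (no filter) around 109 for the Olig2 cells and 23 (intact cells) to 400 (no filter) around 301 for the Tbr1 or Lmx1a cells.

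Same-numbered libraries did not deviate together (r of their deviations −0.21 in Meis2-high, −0.16 in Pax6-high, −0.31 in Olig2 and −0.10 in Tbr1 or Lmx1a cells, across genes). The deviations within a group mirror each other, so each gate gives a single r. Such an r cannot tell whether same-numbered libraries were prepared together. With the replicate number as block, 0 members were called in each of the 4 gates, and 62, 0, 0 and 0 genes in all. With the numbers crossed, an alternative chosen after seeing the data, as were the fits without scaling factors and without Rflna or Hopx cells, the block called 1 member in Meis2-high, 1 in Pax6-high, 1 in Olig2 and 0 in Tbr1 or Lmx1a cells, and 922, 207, 449 and 59 genes in all.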
